A study of Mus musculus with 2 samples.

Results

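Pyramidal neurons of hippocampal area CA1 were examined in a single-nucleus RNA-seq comparison of tauopathy mice with and without ZBP1. A nucleus was taken when it held at least 3000 unique molecular identifiers (UMIs, counted RNA molecules), at most 5% mitochondrial UMIs and at least 3 UMIs of Slc17a7, Camk2a, Neurod2 and Neurod6 together. Per 10000 UMIs it also needed a score of at least 4 for Fibcd1, Wfs1 and Mpped1 summed. That score had to exceed the sum for Foxp2, Tshz2 and Rorb, with limits on dentate, CA3 and inhibitory marker genes. The rule found 58 nuclei, 27 in the PS19 library and 31 in the PZKO library, among 22389 barcodes, 16843 nuclei that passed the depth and mitochondrial limits and 7659 excitatory nuclei.

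Both groups were male, 9 months old and carried the PS19 transgene on 1 allele (PS19+/-), which expresses human P301S mutant tau under the mouse prion protein (Prnp) promoter. PS19 animals had intact Zbp1 (Zbp1+/+) and PZKO animals were their Zbp1-/- littermates. No mice without the transgene were sequenced. Hippocampi of 5 males per genotype made up each library. The study's text describes both pooled hippocampi and separate handling of individual animals, and the deposited barcodes carry no label of the animal.

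CA1 pyramidal neurons are the main output cells of the hippocampus proper. They receive glutamatergic input from CA3 through the Schaffer collaterals and from entorhinal cortex, and they project to the subiculum. They are known for AMPA- and NMDA-receptor-dependent plasticity and for early loss in tauopathy. ZBP1 is a sensor of Z-form nucleic acids that is induced by interferon and can start necroptosis.

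With 1 library per genotype there was no replicate, so no test was made and genotype and library cannot be told apart. The values below are UMI counts, counts per 1000000 UMIs of the summed nuclei (CPM) and the log2 ratio of PZKO over PS19. Intervals are 95% exact intervals that cover counting error only, since nuclei of 1 library are not replicates. The 58 nuclei held 540824 UMIs in PS19 and 880643 in PZKO. A PS19 nucleus had 9050 to 31317 UMIs (median 20197) and a PZKO nucleus 5337 to 59351 (median 25499).

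The selected nuclei sat close to the limit that selected them. Their score ranged from 4.05 to 6.45 per 10000 UMIs in PS19 (median 4.52) and from 4.03 to 7.50 in PZKO (median 4.71). Of these nuclei, 18 in PS19 and 23 in PZKO scored below 5. Just outside, the highest scores were 3.98 and 3.97 in PS19 and 3.99 in PZKO, and 50 PS19 and 83 PZKO nuclei that met every other condition scored from 3 to below 4. The score came mostly from Mpped1, a metallophosphoesterase gene, which gave 72.6% of the 259 score UMIs in PS19 and 82.7% of the 416 in PZKO. Fibcd1 was seen in 20 PS19 and 17 PZKO nuclei and Wfs1 in 8 and 9, so that 7 PS19 and 11 PZKO nuclei held neither. These values chose the nuclei and are given as a description.

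**Figure D1:**
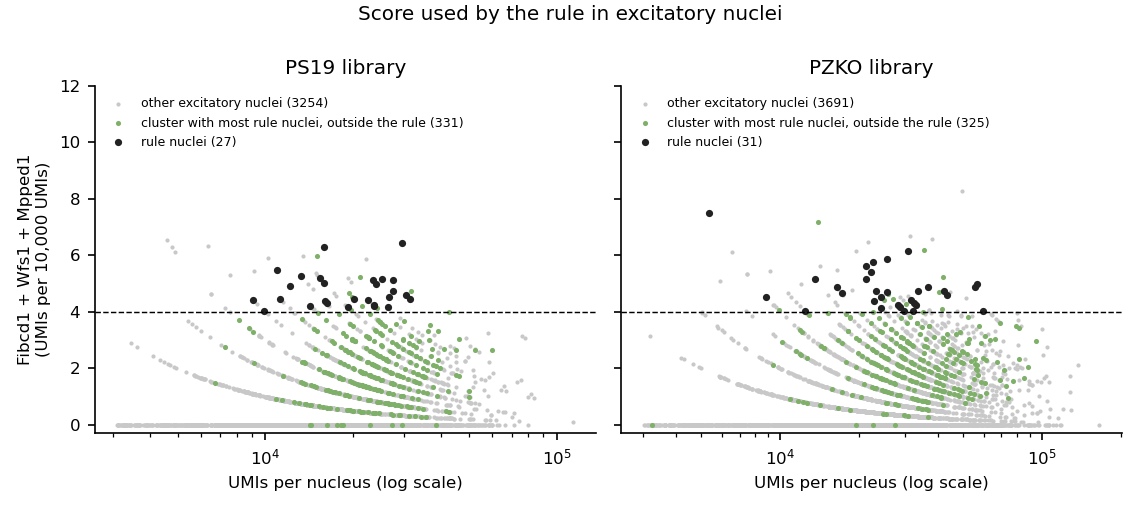
Each point is an excitatory nucleus; the x axis is its UMIs on a log scale, the y axis the summed Fibcd1, Wfs1 and Mpped1 UMIs per 10000 UMIs, with the limit of 4 dashed. Black points are the 27 PS19 and 31 PZKO rule nuclei, and most nuclei of the expression cluster that held the largest number of them (green) lie under the limit.

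The CA1 label was checked against expression as a whole. Clustering all 7659 excitatory nuclei gave 41 clusters, and 38 of the 58 nuclei (19 per library) fell into 1 of them, with 350 PS19 and 344 PZKO nuclei. That cluster was led by the noncoding genes 4921539H07Rik, Gm10754, B230110G15Rik and Gm2115 and by Galntl6, a glycosyltransferase gene, and it also ranked Fibcd1 and Man1a among its 10 leading genes. It is called the Galntl6 cluster here. The other 20 nuclei (8 PS19 and 12 PZKO) were spread over 10 clusters. Of these, 5 joined a cluster led by Foxp2 and Cdh18, 3 a cluster led by Cobll1 and Thsd7b, and 3 a cluster led by Gm32647 and Col6a1. In PS19 alone, 1 fell into a cluster led by Prr5l and Sox6 that had the glial genes Gjc3, Aspa and Slc1a3 among its 10 leading genes. In PZKO alone, 2 fell into a cluster led by Fn1 and Pde11a, 2 into a cluster led by the interneuron genes Erbb4 and Dlx6os1, and 1 into a cluster led by the endothelial genes Flt1 and Slco1a4.

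Clustering the 58 nuclei on their own separated 50 nuclei (22 PS19, 28 PZKO) from 8 (5 PS19, 3 PZKO). The group of 50 held 361 CPM of Man1a, a mannosidase gene that marks CA1 and that the rule did not use, and 118 UMIs of Fibcd1, which the rule used. It held all 38 nuclei of the Galntl6 cluster. In the group of 8, Fibcd1, Wfs1 and Pou3f1 (a POU-domain transcription factor) were at 0 UMIs and Man1a had 1 UMI. These nuclei qualified through Mpped1, at 466 CPM. They carried deep cortical layer genes instead: Hs3st4, a heparan sulfate sulfotransferase gene, was at 3521 CPM against 298 CPM in the group of 50, and the transcription factor gene Tle4 was at 711 CPM. The label CA1 therefore went against the data for these 8 nuclei. A further 12 nuclei (3 PS19, 9 PZKO) lay in the group of 50 but outside the Galntl6 cluster, among them those in the clusters led by interneuron and endothelial genes, and they remain in every value given without the 8. Several results below are also given without the 8 nuclei or for the 38 nuclei inside the Galntl6 cluster.

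**Figure D2:**
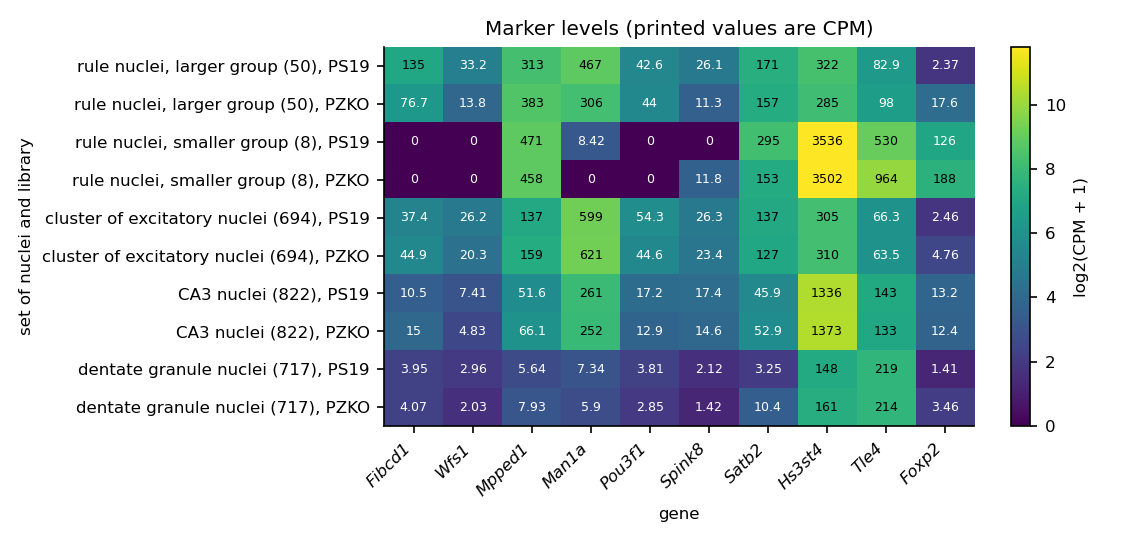
Rows are sets of nuclei by library and columns are marker genes; the colour is log2(CPM + 1) and the printed value is CPM. The 8 nuclei of the smaller group show Mpped1, Hs3st4, Tle4 and Foxp2 with Fibcd1, Wfs1 and Pou3f1 at 0, whereas the larger group and the cluster share the CA1 markers.

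Man1a was the marker left for an independent look at the nuclei. It was detected in 23 of 27 PS19 nuclei (85.2%) and 22 of 31 PZKO nuclei (71.0%). Per 10000 UMIs a PS19 nucleus held 0 to 15.3 (median 2.99) and a PZKO nucleus 0 to 14.7 (median 1.82), so the libraries overlapped over nearly their whole range. Summed, Man1a was 366 CPM in PS19 and 276 CPM in PZKO (log2 ratio -0.41, -0.68 to -0.13). It was -0.61 without the 8 nuclei and -0.23 inside the Galntl6 cluster. In all 694 nuclei of that cluster Man1a stood at 599 CPM in PS19 and 621 CPM in PZKO, and it was 261 and 252 CPM in CA3 nuclei and 7.34 and 5.90 CPM in dentate granule nuclei.

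Markers of other cells also differed between the libraries within the 58 nuclei. Summed inhibitory neuron markers (5 of 5 detected, Erbb4 the most abundant) were 22.2 CPM in PS19 and 86.3 CPM in PZKO. Endothelial markers were 12.9 and 50.0 CPM, with Flt1 and Cldn5 at 0 in PS19, and inside the Galntl6 cluster all 4 were at 0 in PZKO. Oligodendrocyte markers (6 of 6, Mbp the most abundant) were 235 and 212 CPM and astrocyte markers (5 of 5, Gfap) 70.3 and 73.8 CPM. Microglial markers (5 of 5, with 25 and 22 UMIs) were lower in PZKO, at 46.23 CPM in PS19 and 24.98 CPM in PZKO. Their log2 ratio was -0.89 (-1.78 to -0.0019) over the 58 nuclei and -0.05 (-1.22 to 1.16) for the 38. Deep cortical layer markers were 1268 CPM in PS19 and 824 CPM in PZKO over the 58 nuclei, and 419 and 411 CPM without the 8. CA3 markers (7 listed, Grik4 the most abundant) were 300 and 326 CPM over the 58 nuclei (0.12, -0.16 to 0.41), 82 and 244 UMIs without the 8 (0.66, 0.29 to 1.04) and 0.72 (0.27 to 1.18) for the 38, with Bok and Iyd at 0 in PS19 and Coch at 0 in both libraries of the 58. The rule itself set limits on CA3 and inhibitory markers. Their part in the gene differences below was not tested except where values without these nuclei are given.

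The nuclei of the rule made up nearly the same share of both libraries. They were 0.748% of excitatory nuclei in PS19 (27 of 3612, Clopper-Pearson 95% interval 0.493 to 1.09%) and 0.766% in PZKO (31 of 4047, 0.521 to 1.09%). Of all passing nuclei they were 0.331% (0.218 to 0.481%) and 0.357% (0.243 to 0.507%). The intervals of the libraries overlapped almost entirely. With the score limit lowered to 2 the shares of excitatory nuclei were 5.23% and 6.87%, and the Galntl6 cluster gave 9.69% in PS19 and 8.50% in PZKO, so the direction depended on how the cells were defined. Dentate granule nuclei were 13.1% of excitatory nuclei in PS19 and 6.05% in PZKO.

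Zbp1 itself could not check the genotype in these cells. It had 0 UMIs in the 58 nuclei of both libraries, and 3 and 2 UMIs in the whole Galntl6 cluster, too few to compare. A count of 0 allowed up to 5.55 CPM in PS19 and 3.41 CPM in PZKO. Mapt, the mouse gene for tau, had 198 UMIs in PS19 and 346 in PZKO, and was seen in 27 of 27 and 30 of 31 nuclei. That was 366 and 393 CPM, a log2 ratio of 0.10 (-0.15 to 0.36), and 0.04 in the Galntl6 cluster. Prnp, whose promoter drives the transgene, was 235 CPM in PS19 and 196 CPM in PZKO, with an interval that included 0 (-0.60 to 0.08). In larger sets its interval lay below 0, with -0.27 (-0.36 to -0.18) in the whole Galntl6 cluster. The ratio was -0.39 (-0.47 to -0.31) in CA3 nuclei and -0.53 (-0.65 to -0.42) in dentate granule nuclei. Xist had 1 UMI in PS19 and 0 in PZKO and the Y-linked gene Eif2s3y 90 and 131 UMIs, as male nuclei would give.

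Across the 2557 genes with at least 100 UMIs in the 58 nuclei, the median log2 ratio was 0.01, and the median counting interval reached 0.45 to either side. At a log2 ratio of 0.5 or more, 195 genes were higher in PZKO (7.63%), and 160 were lower at -0.5 or less (6.26%), while 50.8% of genes were above 0 and 49.2% below. Without the 8 nuclei the counts were 233 (10.6%) and 142 (6.46%) of 2198 genes. In the 694 nuclei of the Galntl6 cluster, where the median interval reached 0.26 to either side, 136 (1.27%) of 10680 genes were higher and 522 (4.89%) lower, with 37.3% of genes above 0 and 62.7% below. For the 38 rule nuclei inside it, 6.76% of 1509 genes were higher and 3.71% lower, and 55.1% were above 0.

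The genes with the largest excess in PZKO were carried by few nuclei. Grik1, which encodes the kainate receptor subunit GluK1, had 4 UMIs in 3 PS19 nuclei and 291 UMIs in 5 PZKO nuclei. A single PZKO nucleus supplied 199 of them (68.4%), and the log2 ratio of 5.48 (4.11 to 7.37) summarised that nucleus more than the group. Inside the Galntl6 cluster the 38 nuclei held 1 Grik1 UMI in each library, and the 694 nuclei 22 and 76 UMIs (1.33, 0.63 to 2.09). Nxph1, a secreted neurexin ligand gene typical of interneurons, had 0 UMIs in PS19 and 202 in 3 PZKO nuclei. With PS19 set to a floor of 3 UMIs it was 41.4-fold higher (log2 ratio 5.37), and its counting interval began at 5.06. Of the PZKO UMIs, 99.5% came from 2 nuclei outside the Galntl6 cluster.

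Several other genes at that end also had most of their UMIs in few nuclei or outside the Galntl6 cluster. For Ptprm, an adhesion phosphatase gene, 1 UMI in PS19 stood against 110 in PZKO, of which 48.2% came from 1 nucleus (6.08, 3.57 to 11.39). Fras1, an extracellular matrix gene, had 4 and 140 UMIs and Npas3, a neuronal transcription factor gene, 8 and 165. For Ptprm, Fras1, Npas3, Grm8 (a presynaptic metabotropic glutamate receptor gene) and Unc5d (a netrin receptor gene), between 92.9% and 99.4% of the PZKO UMIs lay outside the Galntl6 cluster. In the 694 nuclei Ptprm was 1.38 (0.59 to 2.25, 17 and 61 UMIs), Npas3 0.57, Unc5d 0.55, Grm8 0.38 and Fras1 0.07. Lrrtm4, a postsynaptic adhesion gene, had 145 UMIs in 8 PS19 nuclei and 1448 in 19 PZKO nuclei. In each library 1 nucleus supplied 40% (PS19) and 31.3% (PZKO) of its UMIs. Outside the Galntl6 cluster lay 93.2% of its PZKO UMIs. Its log2 ratio was 2.62 (2.37 to 2.87) in the 58 nuclei, 1.15 inside the Galntl6 cluster among the 38, and -0.11 in the 694. Lingo2, a leucine-rich repeat membrane protein gene, had 164 UMIs in 20 PS19 nuclei and 965 in 24 PZKO nuclei. Its ratio was 1.85 over the 58 nuclei, 1.74 without the 8, 0.62 (0.33 to 0.91) for the 38 inside the Galntl6 cluster and 0.14 in the 694. Tafa2, a gene for a chemokine-like secreted protein, had 15 UMIs in 6 PS19 nuclei and 153 in 13 PZKO nuclei. Its ratio was 2.65 over the 58 nuclei, 2.12 (0.58 to 4.11) for the 38, with 4 and 24 UMIs, and 0.46 in the 694.

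At the other end, Bc1 was lower in PZKO however the cells were defined. Bc1 is a brain cytoplasmic noncoding RNA of the chromosome 7 locus chr7:144914470-144914637 (mm10, plus strand) that is carried into dendrites and represses translation. All 27 PS19 and all 31 PZKO nuclei contained it. A PS19 nucleus had 2.08 to 52.1 UMIs per 10000 (median 15.1) and a PZKO nucleus 0.468 to 20.6 (median 6.97), so the ranges overlapped while 1 median was above the other. Summed, it was 1664 CPM in PS19 and 771 CPM in PZKO (log2 ratio -1.11, -1.26 to -0.96). The ratio was -1.03 without the 8 nuclei and -1.26 inside the Galntl6 cluster, and no nucleus held more than 16.5% of a library's Bc1 UMIs. The 694-nucleus cluster gave -1.41, CA3 nuclei -1.32 and dentate granule nuclei -1.03. Ttr, the transthyretin gene that marks choroid plexus, was also lower, with 89 UMIs in 27 of 27 PS19 nuclei against 10 UMIs in 8 of 31 PZKO nuclei. Summed choroid plexus markers (3 of 5 detected) were 192 CPM in PS19 and 31.8 CPM in PZKO, with Folr1 and Clic6 at 0 in both, and oligodendrocyte nuclei gave a Ttr log2 ratio of -3.08 against -3.86 in the 58 nuclei. After an ambient profile from barcodes below 1500 UMIs was subtracted, the Bc1 ratio was -1.29.

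**Figure D3:**
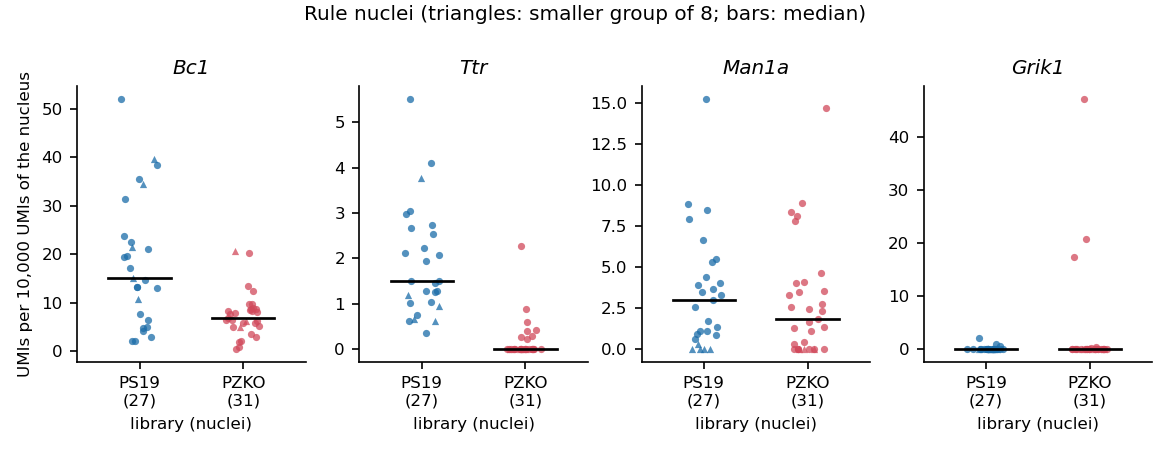
Each point is 1 of the 58 nuclei, the y axis is UMIs per 10000 UMIs of the nucleus, and the bar is the median of the library. The Bc1 medians are 15.1 and 6.97 with overlapping ranges, Ttr is likewise lower in most PZKO nuclei, Man1a overlaps, and the Grik1 excess in PZKO comes from a few points.

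Several other genes at the low end depended on the 8 deep-layer nuclei or on single nuclei, and others kept their direction without them. Cdh18, a cadherin gene, was 1121 CPM in PS19 and 533 CPM in PZKO (-1.07, -1.25 to -0.90), but 0.26 without the 8 nuclei, 5 of which were PS19. Inpp4b, an inositol phosphatase gene, was -1.50 with 56.0% of its 209 PS19 UMIs in 1 nucleus, whereas 10 PS19 and 50 PZKO UMIs remained without the 8 nuclei (1.41). Olfm3, a secreted olfactomedin gene, had 125 UMIs in PS19 and 50 in PZKO (-2.03), and -0.64 without them. Epha3, an ephrin receptor gene, kept its ratio, with -1.10 over the 58 nuclei, -1.28 without the 8 and -1.30 inside the Galntl6 cluster, although it was 0.01 in the 694 nuclei. Frmpd4, a scaffold gene whose protein binds PSD-95, was present in every nucleus of both libraries, with 1287 UMIs in PS19 and 1183 in PZKO. Its log2 ratio of -0.83 became -0.36 without the 8 nuclei and 0.08 in the 694. Fbxl7, Pcdh17, Sdk2 and Dlc1 made up the rest of the low end, at -1.55 to -1.04, and were between -0.41 and 0.26 in the 694. Without the 8 nuclei Sdk2 was -1.07 (-1.69 to -0.45) and Pcdh17 -0.94 (-1.47 to -0.40), while the intervals of Fbxl7 (-0.62, -1.30 to 0.07) and Dlc1 (-0.19, -0.83 to 0.46) included 0. For the 38 nuclei inside the Galntl6 cluster Sdk2 was -0.88, Dlc1 -0.81, Pcdh17 -0.68 and Fbxl7 -0.17.

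**Figure D4:**
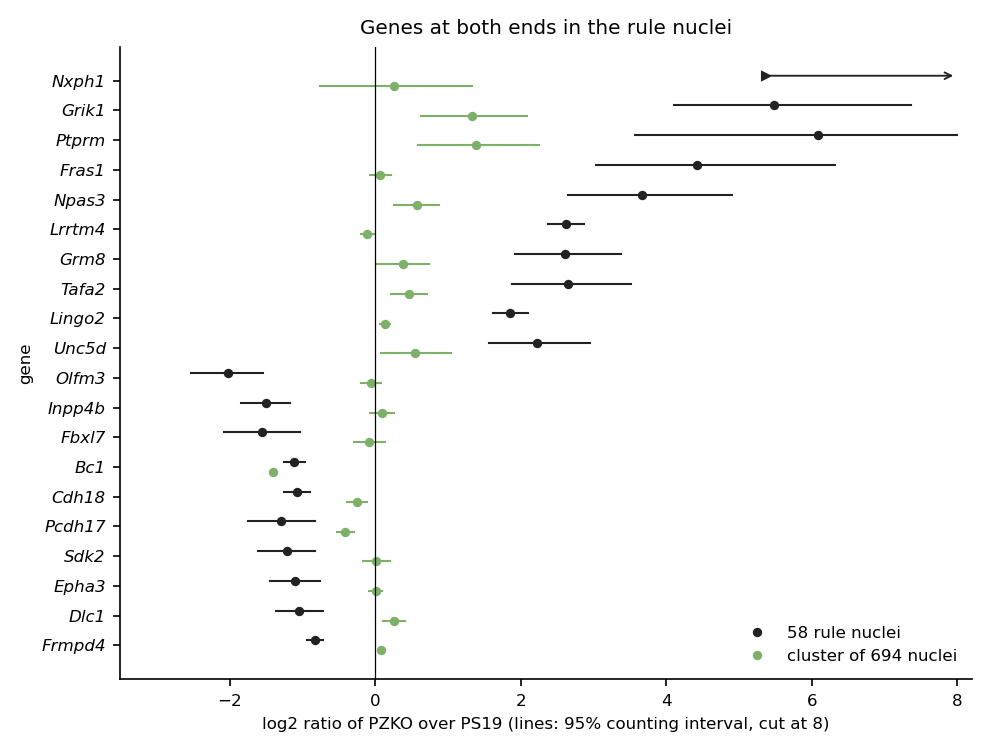
The x axis is the log2 ratio of PZKO over PS19 for the 10 highest and 10 lowest genes of the 58 nuclei (black). The same genes in the 694-nucleus cluster are green. Lines are 95% counting intervals, and an arrow marks the open interval of Nxph1, whose ratio sets PS19 to a floor of 3 UMIs. Most of the 20 genes lie near 0 in the cluster, and Bc1 lies at -1.11 in the 58 nuclei and -1.41 in the 694.

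Glutamate receptor genes were described as families. All 9 AMPA and kainate receptor genes were measured, with a median of 0.26, 7 above 0 and 3 past 0.5 (Gria3, Gria4 and Grik1), beside a median of 0.01, 50.8% above 0 and 7.63% past 0.5 over all measured genes. No member was past 0.5 among the 6 measured in the 38 nuclei or the 7 measured in the 694. In these sets 6.76% and 1.27% of all genes were past 0.5 upward. Gria1, the GluA1 subunit gene that is abundant in CA1, was 2666 CPM in PS19 and 3025 CPM in PZKO (0.18, 0.09 to 0.28), and 0.14 inside the Galntl6 cluster. Gria2, the subunit gene that sets calcium permeability, was 2150 and 1947 CPM (-0.14). Gria3 was 699 and 997 CPM (0.51, 0.34 to 0.69), 0.42 inside the cluster among the 38 nuclei, and 0.15 in the 694. Gria4 had 118 UMIs in 18 PS19 nuclei and 376 in 28 PZKO nuclei (0.97, 0.67 to 1.28), and 1.53 (1.14 to 1.94) without the 8 nuclei. Outside the Galntl6 cluster lay 61.0% and 77.1% of its UMIs, and it was 0.44 (-0.09 to 0.99) for the 38 nuclei inside and 0.02 in the 694.

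NMDA receptor genes stayed nearer 0, with 4 of 7 measured, a median of 0.15 and none past 0.5. Grin2a was 2134 CPM in PS19 and 2545 CPM in PZKO (0.25, 0.15 to 0.36) and Grin2b 2925 and 3016 CPM (0.04). Of 5 measured metabotropic glutamate receptor genes, 4 were above 0 (50.8% of all genes were), and 1 was past 0.5, Grm8 at 2.61, which the nuclei outside the Galntl6 cluster carried, beside 7.63% of all genes. Grm7 was at 0.49 and Grm5 at 0.23, and inside the Galntl6 cluster these were 0.09 and 0.04. GABA-A receptor genes (9 of 12 measured) had a median of -0.10. Gabra2, the subunit gene found at axon initial segments, was 362 and 561 CPM (0.63, 0.39 to 0.88) and 0.54 inside the cluster among the 38, while Gabra5, the extrasynaptic subunit gene of CA1, was 211 and 159 CPM (-0.41). Without the 8 nuclei they were 0.43 and -0.61. The summed ratio of the GABA-A list was 0.12 (0.04 to 0.20), on the other side of 0 from its median.

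Genes of synaptic structure were described next. Postsynaptic scaffold genes (12 of 16 measured) had a median of 0.12 and presynaptic vesicle genes (17 of 30) 0.04, with none of either past 0.5 in the 58 nuclei, beside 7.63% of all genes. Without the 8 nuclei the scaffold gene Dlg1 (0.79) and Sv2b (0.54) were past it. CaM kinase genes had a median of 0.14 over the 58 nuclei (7 of 11 measured) and -0.21 without the 8 (6 measured), and their summed log2 ratios were -0.06 (-0.16 to 0.03) and -0.23 (-0.34 to -0.13). Camk2a, the kinase gene central to long-term potentiation, is in this list and helped to select the nuclei, and as a description it was 1074 CPM in PS19 and 919 CPM in PZKO. Camkv, a related kinase-like gene, was -0.55.

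Among ion channel genes, 19 of 35 potassium and HCN channel genes were measured, with a median of -0.05 and 12 below 0, beside 49.2% of all genes. In the 694 nuclei 25 of 31 were above 0 (median 0.08), beside 37.3% of all genes. In the 58 nuclei 3 were past 0.5, beside 7.63% of all genes. Kcnd3, an A-type potassium channel gene, had 17 UMIs in PS19 and 86 in PZKO (1.64), 2.03 without the 8, 0.45 for the 38 (9 and 17 UMIs) and 0.26 in the 694. Kcnip3, a channel-interacting protein gene, was 0.73 over the 58 nuclei, 0.76 without the 8 and 0.06 in the 694. Kcnn2, the SK2 channel gene, was 309 and 480 CPM (0.64), 0.49 without the 8 and 0.42 inside the Galntl6 cluster. Of 14 measured calcium and sodium channel genes, 7 were above 0 and 7 below (median 0.01). Past 0.5 upward was 1 (Cacnb4) and past it downward were 2, beside 7.63% and 6.26% of all genes. For the 38 nuclei these counts were 0 and 2, beside 6.76% and 3.71%. Scn3a and its partner subunit gene Scn3b were lower in PZKO, at -0.65 and -0.77, and at -0.77 and -0.62 for the 38 nuclei inside the cluster. Both were near 0 in the 694 nuclei, at -0.11.

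Of 20 genes for tau and its kinases 10 were measured in the 58 nuclei, 7 of them above 0 and none past 0.5, with a median of 0.19, while 50.8% of all genes were above 0. The kinase genes Gsk3b and Mark3 were at 0.28 (-0.06 to 0.62) and 0.40 (0.01 to 0.79). Mark3 was 0.54 without the 8 nuclei and 0.83 (0.33 to 1.35) for the 38, but 0.10 in the 694. In the 694 nuclei 10 of the 20 genes were above 0, beside 37.3% of all genes. Cdk5 (-0.51) and its activator gene Cdk5r2 (-0.58) were past -0.5 there, as were 4.89% of all genes. Microtubule protein genes (12 of 24) had a median of -0.01, with Map2 at -0.02 and Map1b at 0.04. Heat shock genes (10 of 24) had a median of -0.31, with 8 below 0 beside 49.2% of all genes. Hsp90aa1, a cytosolic chaperone gene, had 57 UMIs in PS19 and 56 in PZKO (-0.73, -1.29 to -0.17), and -0.40 in the 694, where 17 of 18 measured heat shock genes and 62.7% of all genes were below 0.

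Mitochondrially encoded genes changed sign with the choice of nuclei. Over the 58 nuclei 8 of 8 measured were below 0, with a median of -0.15, beside 49.2% of all genes below 0. The median was 0.08 without the 8 nuclei. Inside the Galntl6 cluster all 8 were above 0 among the 38 nuclei (median 0.54), beside 55.1% of all genes. In the 694 nuclei 12 of 12 were below 0 (median -0.36), beside 62.7% of all genes. Nuclear genes of oxidative phosphorylation had too few UMIs in the 58 nuclei, with 1 of 76 measured. Of those measured in the 694 nuclei, 74 of 75 were below 0 (median -0.36), as were 72 of 78 ribosomal protein genes (median -0.31) and 62.7% of all genes.

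Interferon-stimulated genes were sparse but uneven between the libraries. Of 30 listed genes 28 were in the matrices, and none reached 100 UMIs in the 58 nuclei. Together they gave 93 UMIs in PS19 and 316 in PZKO, or 172 and 359 CPM (log2 ratio 1.06, 0.72 to 1.41). The summed ratio was 0.82 without the 8 nuclei and 1.40 for the 38. The median nucleus held 3 and 4 of these UMIs and the highest 22 and 63, so most nuclei of the libraries overlapped and the highest counts were in PZKO. Ifit1, an antiviral RNA-binding protein gene, had 0 UMIs in PS19 and 35 in 8 PZKO nuclei, and 31 of the 35 lay inside the Galntl6 cluster. With PS19 set to the floor of 3 UMIs, Ifit1 was 7.17-fold higher in PZKO. Oasl2, an oligoadenylate synthetase-like gene, had 0 and 30 UMIs. Across the 694 nuclei Ifit1 was 228 and 502 UMIs (0.68, 0.45 to 0.91) and Iigp1, an interferon-induced GTPase gene, 44 and 152 UMIs (1.33). There 13 genes were measured, 11 above 0 and 6 past 0.5 (median 0.50), beside 37.3% of all genes above 0 and 1.27% past 0.5. The summed list ratio there was 0.25 (0.18 to 0.33). It was 0.06 (-0.02 to 0.14) in CA3 nuclei, 0.84 in dentate granule nuclei and 0.09 in all excitatory nuclei. Ifi27, which the study calls interferon-linked and lower in PZKO, went the other way. It had 23 and 10 UMIs in the 58 nuclei (-1.91, -3.14 to -0.78) and was -1.38 for the 38 and -0.34 in the 694. Of the necroptosis genes, Mlkl had 0 UMIs in both libraries and Ripk1 had 14 and 10. Other lists had few measured members, with 7 of 40 proteasome genes (median -0.25), 6 of 19 clock genes (median -0.02), and 2 each of the glycolysis, unfolded protein response and DNA damage genes.

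Activity-regulated genes were nearly absent from the comparison at this depth. Of 26, only Homer1 reached 100 UMIs, at 90 UMIs in PS19 and 138 in PZKO (-0.09, -0.48 to 0.31). Arc, whose protein acts at synapses after firing, had 13 and 16 UMIs. After thinning each nucleus to 3000 UMIs, 74.1% of PS19 nuclei (53.7 to 88.9%) and 64.5% of PZKO nuclei (45.4 to 80.8%) held a UMI of any activity gene, against 56.5% and 52.1% of oligodendrocyte nuclei, in which such UMIs can come from free RNA. Before thinning all 58 rule nuclei held one, and 71.4% and 72.9% of oligodendrocyte nuclei did. Median depths before thinning were 20197 and 25499 UMIs in the rule nuclei and 4366 and 5256 in the oligodendrocyte nuclei. In the 694 nuclei Arc was lower in PZKO, with 352 and 283 UMIs (-0.77, -1.01 to -0.54), Egr1 was -0.38 and Fos -0.01. Over all excitatory nuclei Arc was 0.60, Egr1 0.52 and Fos 0.67, on the other side of 0 for Arc and Egr1. This difference was not tested.

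Genes that the study names for excitatory neurons were then followed in the rule nuclei. That list was chosen on these same libraries and is not independent evidence of a direction. Of 20 genes named as higher in PZKO, 10 were measured in the 58 nuclei, 6 above 0 and 2 past 0.5 (Gria4 and Grik1), with a median of 0.22, beside 50.8% above 0 and 7.63% past 0.5 over all measured genes. Their median was 0.34 without the 8 nuclei (8 measured), 0.06 without the highest Scrublet doublet scores, 0.04 without nuclei with glial markers and 0.03 in matched depth bins. The median in the 694 was 0.04 and 8 of 14 were above 0, beside 37.3% of all genes. The study named these genes for excitatory neurons together, not for CA1. Over all excitatory nuclei here, all 20 were above 0, with a median of 0.57. Across all genes measured in that set the median was -0.06 and the upper quartile 0.10. Rora, a nuclear receptor gene, was 470 CPM in PS19 and 580 CPM in PZKO (0.31, 0.09 to 0.53) and 0.30 in the 694, and Sv2b, a synaptic vesicle gene, was 292 and 412 CPM (0.50, 0.22 to 0.78) over the 58 nuclei, 0.13 in the 694 and -0.01 (-0.39 to 0.38) for the 38, with 102 and 140 UMIs.

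Of 14 genes named as lower in PZKO, 5 were measured and all 5 were below 0 in the 58 nuclei, with a median of -0.55, beside 49.2% of all genes below 0. Cst3, the cystatin C gene, had 85 UMIs in PS19 and 87 in PZKO (-0.67, -1.12 to -0.22), Actb, the beta-actin gene, 87 and 95 (-0.58, -1.01 to -0.14), and Clu, the clusterin gene, 53 and 59 (-0.55, -1.11 to 0.01). Apoe, the apolipoprotein E gene, was -0.49 and Pabpc1, the poly(A)-binding protein gene, -0.42. In the 694 nuclei all 14 were below 0, 10 of them at -0.5 or less, with a median of -0.57, beside 62.7% and 4.89% of all genes. Over all excitatory nuclei all 14 were below 0, with a median of -0.69, while the lower quartile of all genes was -0.24. Apoe, Clu and Cst3 are most abundant in glia, and summed astrocyte markers in that cluster were 66.1 CPM in PS19 and 48.6 CPM in PZKO. Their part in these ratios was not tested.

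**Figure D5:**
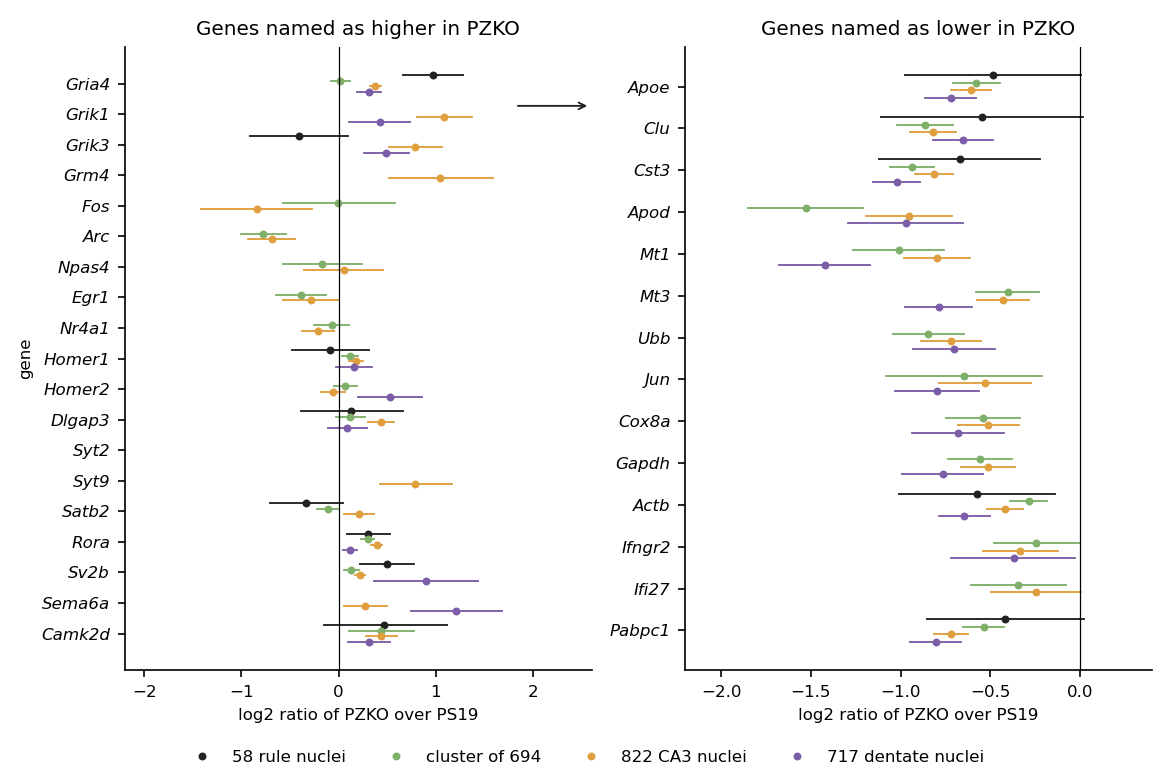
The x axis is the log2 ratio of PZKO over PS19 with its 95% counting interval for genes named by the study and reported here, in the 58 rule nuclei, the 694-nucleus cluster, CA3 and dentate granule nuclei; genes under 100 UMIs in a set are left out there, and the arrow marks Grik1 in the 58 nuclei at 5.48, off the axis. All measured genes of the right panel lie below 0, while the left panel is mixed.

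Some genes that grade across CA1 were also unequal. Ndst4 and Sox5, listed for deep CA1, were 74.0 and 170 CPM and 118 and 329 CPM in the 58 nuclei (1.20 and 1.48). Of the PZKO UMIs, 42.0% of Ndst4 and 92.4% of Sox5 lay outside the Galntl6 cluster, and 1 PZKO nucleus gave 81 of the 290 Sox5 UMIs. The ratios of the 694 nuclei were -0.23 and -0.13. For the 38 nuclei inside the cluster Ndst4 was 0.77, and both genes summed to 0.52 (0.04 to 1.02, 55 and 109 UMIs). Calb1, the calbindin gene of superficial CA1, had 20 and 9 UMIs in the 58 nuclei and was -0.01 in the 694. The 4 genes listed for ventral CA1 summed to 0.18 (-0.48 to 0.86) in the 58 nuclei and -0.01 without the 8. Of 74 axon guidance genes, 20 were measured in the 58 nuclei, 5 past 0.5 upward and 2 downward, beside 7.63% and 6.26% of all genes. For the 38 nuclei 16 were measured, 0 past 0.5 upward and 1 downward, beside 6.76% and 3.71% of all genes. Ntng1, a netrin-G gene, was 109 and 316 CPM (1.53) over the 58 nuclei and -0.09 for the 38 inside the Galntl6 cluster. Epha7, an ephrin receptor gene, was 571 and 397 CPM (-0.52) and -0.31 inside.

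Nuclear noncoding RNAs were among the most abundant transcripts. Malat1 was 78600 CPM in PS19 and 70831 CPM in PZKO (-0.15, -0.17 to -0.13), and -0.18 in the 694. Meg3, an imprinted noncoding RNA, was 6860 and 7675 CPM (0.16). A330008L17Rik, a long noncoding RNA gene at chr8:99416642-99733438 (mm10, plus strand), had 44 UMIs in PS19 and 135 in PZKO (0.91, 0.41 to 1.44). It was 1.25 (0.70 to 1.82) for the 38 nuclei inside the cluster and 0.53 in the 694, and was thus the 1 noncoding gene of the 13 listed that was past 0.5 in all 3 sets.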

How the data were processed

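Nuclei of hippocampus were deposited as 1 library per genotype. The study's statistics section, results and captions call the hippocampi pooled, while its sequencing methods describe separate processing of individual animals. The authors deposited whole-number UMI counts per gene and barcode as 10x matrices, per the file headers filtered by Cell Ranger 8.0.1, while the submitters' processing notes name version 7.0.1 and build mm10. The ambient RNA correction, doublet removal and Seurat normalization of the study's methods are not in the deposited counts, which were used as they stood. Positions came from an mm10 annotation by gene identifier, for 32158 of 32285 genes.

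Barcodes with at least 3000 UMIs and at most 5% mitochondrial UMIs were kept, and the rule was applied to the raw counts. The CA1 rule, marker genes and gene lists were chosen with earlier results of these data known. Counts of the nuclei of a set were summed per library and divided by their total (CPM). The log2 ratio has an exact conditional binomial 95% interval and shares have Clopper-Pearson intervals (scipy 1.17.1). The intervals cover counting error only. In simulated counts they held the true value for 95.9% of 2557 genes for the 58 nuclei and 95.5% of 10680 for the Galntl6 cluster. Those counts were drawn from the counting model that the intervals assume, with no variation between nuclei. The result therefore checks only the calculation and does not measure how well the intervals cover these data. A gene was measured at 100 or more UMIs over both libraries and counted as past the fold at a log2 ratio of 0.5 or more, or -0.5 or less. With 1 library per group no model was fitted across genes. edgeR 4.0.16 and DESeq2 1.42.0 (R 4.3.3) gave alternative scaling factors only.

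Excitatory nuclei and, separately, the 58 nuclei were clustered with scanpy 1.11.5 and leidenalg 0.10.2 (2000 variable genes, 30 components, 20 neighbours, resolution 1 and 0.5). Members of the gene lists, mitochondrial genes, Zbp1, Prnp, Xist, Tsix and Y-linked genes were left out of the clustering. Variable genes were chosen from the rest, so values of those other genes in a cluster describe it. Named genes were Zbp1, Mapt, Prnp, Man1a, those the study names for excitatory neurons, the 10 highest and 10 lowest ratios ranked by the interval end nearest 0, list members past the fold or abundant, and leading genes of clusters. Names outside this rule (Ttr, Ifit1, Oasl2, Xist, Eif2s3y) were chosen after their values were seen. Values of some single genes are not reported here. Doublets were kept, and leaving out the highest Scrublet scores was an alternative. Of the barcode sequences, 47 occurred in both libraries, none among the 58 nuclei. Alternatives covered the score limit, depth, mitochondrial share, marker filters, thinning to 3000 UMIs, matched depth bins, equal weight of nuclei, ambient subtraction, scaling and the UMI minimum of genes. The lower limit of 2, the Galntl6 cluster, the 38 nuclei in it and the 50 nuclei without the smaller group were added after seeing the data.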

Additional observations from a re-analysis of the deposited data

Results flagged for a closer look

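This comparison is given for the genes named above as the highest and lowest log2 ratios (PZKO over PS19) of the 58 rule nuclei. For 5 of them the counting interval in the 58 nuclei lay on 1 side of 0. In CA3 or dentate granule nuclei it lay on the opposite side. These genes were chosen for extreme ratios in the same 58 nuclei, so the count of 5 gives no share of all measured genes. Dpp10, outside that choice, also changed side, at -0.63 in the 58 nuclei and 0.57 in CA3 nuclei. These differences between cell sets were not tested, because each set had 1 library per genotype. Fras1 was 4.43 in the 58 nuclei and -0.27 in dentate granule nuclei. Cdh18 was -1.07 against 0.21 in dentate granule nuclei, and Frmpd4 -0.83 against 0.22. Dlc1 was -1.04 in the 58 nuclei, 0.20 in CA3 nuclei and 1.10 in dentate granule nuclei. Sdk2 was -1.21, 0.21 and 0.37 in the same order. Without the 8 nuclei that carried deep cortical layer genes, Cdh18 was 0.26 and Dlc1 -0.19, both with intervals that included 0, Frmpd4 was -0.36, Sdk2 -1.07 and Fras1 4.63.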

How the results depend on the processing

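No paired analysis was possible because each genotype had 1 library and the barcodes carry no label of the animal. The 58 nuclei were few, their median depth differed between libraries, and 2557 genes could be compared, so low genes were not detectable. A higher depth minimum, at most 1% mitochondrial UMIs or low CA2, subiculum and upper layer markers removed no nucleus. The difference in share between PZKO and PS19 (0.0185 percentage points of excitatory and 0.0265 of passing nuclei) was 1.64 and 0.89 at a score limit of 2 and -1.19 and -0.32 for the Galntl6 cluster. The 195 genes past the fold upward and 160 downward became 9 and 21 at a limit of 6 (2 nuclei per library, 75 genes), 409 and 750 at a limit of 2, 102 and 56 for the 38 nuclei in the Galntl6 cluster, 23 and 11 after thinning (219 genes), and 2475 and 3650 with genes of 1 UMI or more. The downward count was 522 in the Galntl6 cluster, 100 in matched depth bins and 589 with at least 20 UMIs in each library. The median of the study's higher genes (0.22) was 0.058 without the highest Scrublet scores, 0.037 without nuclei with glial markers, 0.43 at a limit of 2, 0.044 in the Galntl6 cluster and 0.031 in matched depth bins. That of its lower genes (-0.55) was -0.82 at a limit of 2. Signs reversed at a limit of 2 for Cdh18 (0.30), Dlc1 (0.12), Frmpd4 (0.047), Inpp4b (0.093) and Sdk2 (0.24), in the Galntl6 cluster for Dlc1 (0.26), Epha3 (0.0058), Frmpd4 (0.079), Inpp4b (0.095), Lrrtm4 (-0.11) and Sdk2 (0.017), and without the 8 nuclei for Cdh18 (0.26) and Inpp4b (1.41, from 10 and 50 UMIs). Of 421 values of named genes under the alternatives chosen at the start, which include those that removed no nucleus, 32 moved by more than their counting interval and 0 reversed. Of 117 under those added later, 46 moved and 12 reversed. Inpp4b without the 8 nuclei was under the minimum of 100 UMIs and so had no measured value there. Also under it, for the 38 nuclei, were Cdh18 (0.46, 29 and 55 UMIs) and Inpp4b (1.06, 8 and 23 UMIs). Sdk2, Dlc1, Pcdh17 and Fbxl7 were among the other named genes under it for the 38. Olfm3, Fbxl7, Dlc1 and Sdk2 were under it without the 8. The causes of these shifts were not tested.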

Other observations

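In the 694 nuclei of the Galntl6 cluster, genes outside the lists had larger ratios than most listed ones. These names were chosen after their values were seen. Gm17167, a noncoding transcript, had 125 UMIs in PS19 and 590 in PZKO, a log2 ratio of 1.78 with an interval of 1.50 to 2.07. It was 2.44 in CA3 nuclei and 1.47 in dentate granule nuclei, and in the 58 rule nuclei it had 2 UMIs in 1 PS19 nucleus and 54 in 17 PZKO nuclei. Gm11867 was lower in PZKO, with 1013 and 428 UMIs (-1.70), -1.48 in CA3 nuclei and -1.75 in dentate granule nuclei. In the 58 nuclei it had 51 and 24 UMIs. Dpp10, a potassium channel auxiliary subunit gene, was on opposite sides of 0, at 2.11 in the cluster (94 and 558 UMIs) and -0.63 in the 58 nuclei (2186 and 2305 UMIs). It was a leading gene of the 8 deep-layer nuclei, at 17553 CPM against 749 CPM in the other 50, and without the 8 its ratio was 5.09 (14 and 898 UMIs), with 3 and 8 UMIs in the 38. All 3 metallothionein genes were below 0 in the cluster (median -0.99), beside 62.7% of all genes, and in the 58 nuclei they summed to 99.9 CPM in PS19 and 65.9 CPM in PZKO.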
